A study of Zea mays with 12 samples.

Results

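Egg cell-secreted EC1-like genes were examined in synergid cells of the maize inbred line B73 before and after pollination. A gene was taken as a member when its description in the deposited table named an egg cell-secreted protein, and 2 of the 45246 genes and loci in the table met this rule. All cells came from B73 plants with no transgene or mutation stated. The SC group held synergid cells from unpollinated ovules at 0 hours after pollination (HAP), and the pSC12, pSC18 and pSC24 groups held the persistent synergid cell, the one that survives pollen tube arrival, at 12, 18 and 24 HAP. Each stage had 3 libraries, and each library was an amplified pool of 25 to 28 cells picked by hand, so a value is the average of a pool. In such pools, fewer cells of a type and less RNA per cell cannot be told apart.

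EC1 proteins are small, cysteine-rich and secreted. In Arabidopsis they are stored in vesicles of the egg cell and released when sperm cells arrive, and the fusogen HAP2 (GCS1) then moves to the sperm surface, which allows gamete fusion. The synergid cells lie beside the egg cell, attract the pollen tube and receive it. EC1 genes are commonly used as markers of the egg cell.

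Both members carried the same best match, Arabidopsis EC1.1, and the same Prolamin-like domain (PF05617), and they were the only 2 genes in the table described with that domain. Zm00001eb396810 lay on chromosome 9 at 143234903 to 143235575 on the minus strand of Zm-B73-REFERENCE-NAM-5.0. Zm00001eb139260 lay on chromosome 3 at 143375626 to 143376760 on the plus strand. Their gene lengths of 673 and 1135 bases equalled their spans, so the annotated models held no gap. Neither overlapped another gene of the table. Both were protein coding, and both passed the filter on low counts.

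Library totals ran from 15435736 to 26539602 counts. One library stood apart: pSC18 replicate 3 had 59 genes at 5 FPKM or more (fragments per kilobase, scaled for depth) that were at most at 0.5 FPKM in the other 11 libraries, against 0 to 7 such genes elsewhere. The members' levels in it, and their differences without it where pSC18 is compared, are therefore given apart. The share of read pairs mapped was lower in all SC and pSC18 libraries and in pSC24 replicate 1 than in the other libraries. A contrast of pSC12 with SC or pSC18 is therefore also a contrast of mapping sets. Only pSC24 held libraries of both sets, so it differed from SC and pSC18 in mapping set in part. Synergid RNA was present in all libraries: ZmES4 (Zm00001eb393820), a defensin-like synergid peptide that takes part in pollen tube burst in maize, ranged from 6018 to 13051 FPKM. The study also reports weak ZmES4 expression in the egg cell and zygote. A high ZmES4 level does not show that a pool held no other cells.

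Zm00001eb396810 was present in every library and was highest before pollination. In SC it was at 360, 161 and 143 FPKM in replicates 1, 2 and 3. In pSC12 it was at 33.4, 41.8 and 59.2 FPKM. In pSC18 it was at 73.8 and 49.3 FPKM in replicates 1 and 2, and apart from these at 149 FPKM in replicate 3. In pSC24 it was at 77.7, 37.5 and 85.1 FPKM. All SC libraries lay above all pSC12 and pSC24 libraries, while the range of pSC18 reached into that of SC through replicate 3 alone. The SC mean was 221 ± 121 FPKM (SD, n = 3). The later means were 44.8 ± 13.1 FPKM for pSC12, 90.6 ± 51.7 FPKM for pSC18 and 66.8 ± 25.6 FPKM for pSC24 (SD, n = 3). Ordered by mean, SC came first, then pSC18, pSC24 and pSC12, and the last 3 overlapped one another. Without pSC18 replicate 3 the pSC18 mean was 61.6 FPKM (n = 2), below that of pSC24. By its mean, the gene ranked 234 among all genes in SC and 1609 in pSC12.

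Zm00001eb139260 was lower than its relative in every library. In SC it was at 68.1, 15.8 and 29.0 FPKM in replicates 1, 2 and 3. In pSC12 it was at 13.7, 13.9 and 8.70 FPKM. In pSC18 it was at 33.3 and 18.1 FPKM in replicates 1 and 2, and at 50.5 FPKM in replicate 3. In pSC24 it was at 32.0, 5.31 and 34.2 FPKM. The pSC12 libraries lay below all SC and pSC18 libraries, and every other pair of stages overlapped. Its mean was 37.7 ± 27.2 FPKM for SC and 12.1 ± 2.97 FPKM for pSC12, and later 34.0 ± 16.2 FPKM for pSC18 and 23.8 ± 16.1 FPKM for pSC24 (SD, n = 3). Within pSC24 the highest library was 6.44 times the lowest, the widest spread of either gene in any stage.

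**Figure D1:**
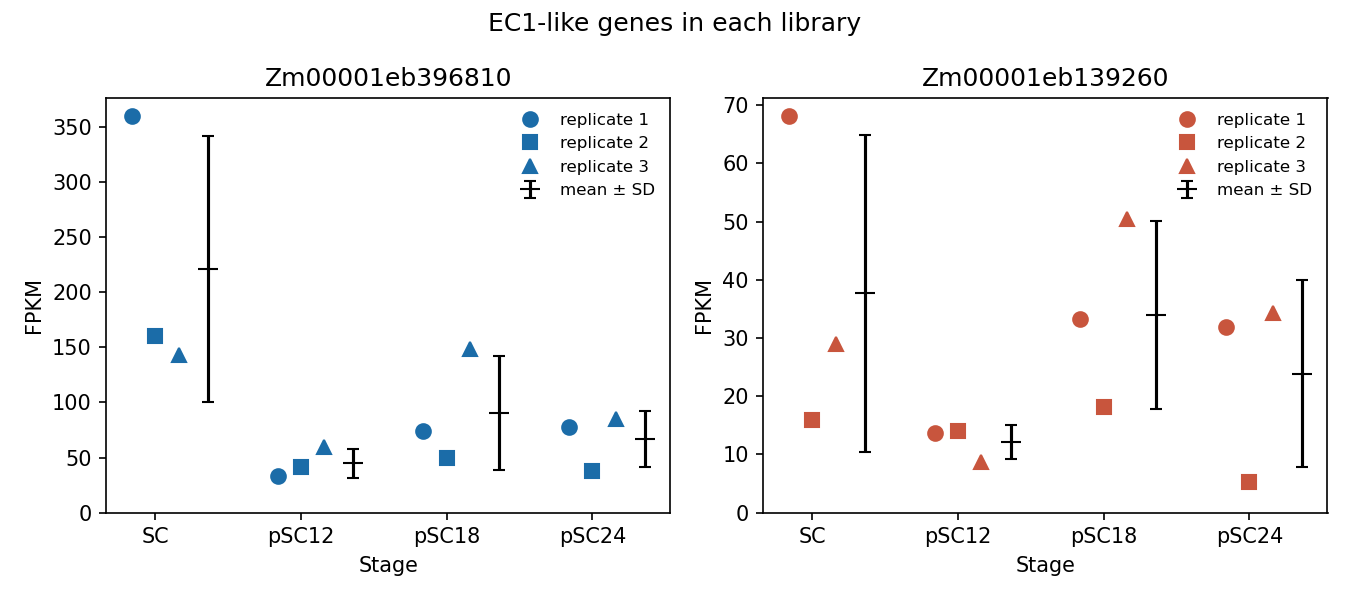
FPKM of Zm00001eb396810 (left) and Zm00001eb139260 (right) in each of 12 libraries, by stage. Symbols mark replicates and the bar shows the mean ± SD of 3 libraries. SC replicate 1, at 360 and 68.1 FPKM, was the highest library for both genes, and pSC18 replicate 3 was the highest of its stage.

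The highest library was the same for both genes in SC (replicate 1), in pSC18 (replicate 3) and in pSC24 (replicate 3), and differed in pSC12. Without SC replicate 1 and pSC18 replicate 3, a choice made after the data were seen, the SC mean of Zm00001eb396810 was 152 FPKM and its pSC18 mean 61.6 FPKM (n = 2 each). Those of Zm00001eb139260 were then 22.4 and 25.7 FPKM.

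The FPKM of Zm00001eb396810 divided by that of Zm00001eb139260 was not fixed between libraries. Replicates 1, 2 and 3 gave 5.29, 10.1 and 4.92 for SC. They gave 2.43, 3.003 and 6.80 for pSC12. For pSC18 they gave 2.22, 2.72 and 2.94, and for pSC24 2.43, 7.06 and 2.49. Single libraries of SC, pSC12 and pSC24 thus held less Zm00001eb139260 for their Zm00001eb396810 than the others of their stage. The ratio did not differ between stages beyond the spread of the libraries (exact permutation test of the log2 ratio over 369600 arrangements, p = 0.161). As a description over 12 libraries that share their total RNA and scaling, Pearson's r of log2(FPKM + 1) between both genes was 0.75, and 0.55 over 10 libraries without SC replicate 1 and pSC18 replicate 3.

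To ask whether EC1-like transcripts changed after pollination, the counts were compared between stages. A gene was called when its Benjamini-Hochberg adjusted p in edgeR's quasi-likelihood test was under 0.05 and its log2 fold change beyond 1. Zm00001eb396810 was called lower in pSC12 than in SC (log2 fold change -2.29 ± 0.46, SE, adjusted p = 0.0139). It was also called lower in pSC24 than in SC (log2 fold change -1.74 ± 0.45, adjusted p = 0.0123). In both comparisons its 3 later libraries lay below all 3 SC libraries. Among all 21143 genes tested, 2.8% were called in pSC12 versus SC and 17.8% in pSC24 versus SC, with 1.18% and 7.57% called lower. Libraries did not overlap for 28.9% and 44.6% of tested genes.

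Both calls depended on single libraries. The call in pSC12 was lost without SC replicate 1 (log2 fold change -1.76, adjusted p = 0.0517), without pSC12 replicate 1 (-2.12, adjusted p = 0.0628) and without pSC12 replicate 2 (-2.25, adjusted p = 0.0634). The call in pSC24 was lost without SC replicate 1 (-1.18, adjusted p = 0.0706) and without pSC24 replicate 2 (-1.46, adjusted p = 0.0507). With the mapping set as a term, the differences were -1.94 ± 0.86 (SE, adjusted p = 0.365) and -1.51 ± 0.71 (adjusted p = 0.188), and neither was called. Mapping set varied within pSC24 only, so this term rested on pSC24 replicate 1 against the other pSC24 libraries. It is nearly confounded with stage and cannot decide whether the calls depend on mapping set. Without both SC replicate 1 and pSC18 replicate 3 both stayed called (-1.76, adjusted p = 0.0203, and -1.18, adjusted p = 0.0261).

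In pSC18 versus SC, Zm00001eb396810 was not called (log2 fold change -1.29 ± 0.45, adjusted p = 0.0962). Without pSC18 replicate 3 it was called lower (-1.84, adjusted p = 0.0333), and the range over all 12 left-out libraries was 0.0333 to 0.353. In this comparison 4.3% of genes were called, and libraries did not overlap for 31.1%. None of the members was called in it, with 1 at an unadjusted p under 0.05, and DESeq2 called none either.

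Zm00001eb139260 was called in none of the 6 comparisons. Its difference in pSC12 versus SC was -1.62 ± 0.64 on the log2 scale (adjusted p = 0.169), with no overlap between the libraries. In pSC18 versus SC it was -0.15 ± 0.62 (adjusted p = 0.924), and -0.55 (adjusted p = 0.730) without pSC18 replicate 3. The value changed sign to 0.58 without SC replicate 1, to 0.12 without pSC18 replicate 2 and to 0.04 with scaling by total counts. In pSC24 versus SC it was -0.67 ± 0.62 (adjusted p = 0.472), and 0.09 without SC replicate 1. DESeq2 called it in none of them.

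Among the persistent stages no member was called. From pSC12 to pSC18, Zm00001eb396810 differed by 1.01 ± 0.45 (adjusted p = 0.380) and Zm00001eb139260 by 1.48 ± 0.63 (adjusted p = 0.363) on the log2 scale. Both had an unadjusted p under 0.05. Without pSC18 replicate 3 the differences were 0.45 (adjusted p = 0.792) and 1.08 (adjusted p = 0.645), and neither had an unadjusted p under 0.05. The pSC18 libraries of Zm00001eb139260 all lay above those of pSC12. From pSC12 to pSC24 the differences were 0.55 ± 0.44 and 0.95 ± 0.63, and from pSC18 to pSC24 they were -0.45 ± 0.44 and -0.52 ± 0.62, with 0 members at an unadjusted p under 0.05. Without pSC18 replicate 3 the latter were 0.097 and -0.13. Over all tested genes, 0.0236% were called in pSC18 versus pSC12, 14.2% in pSC24 versus pSC12 and 8.08% in pSC24 versus pSC18, and libraries did not overlap for 17.6%, 38.6% and 31.6%. DESeq2 called no member in these comparisons.

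**Figure D2:**
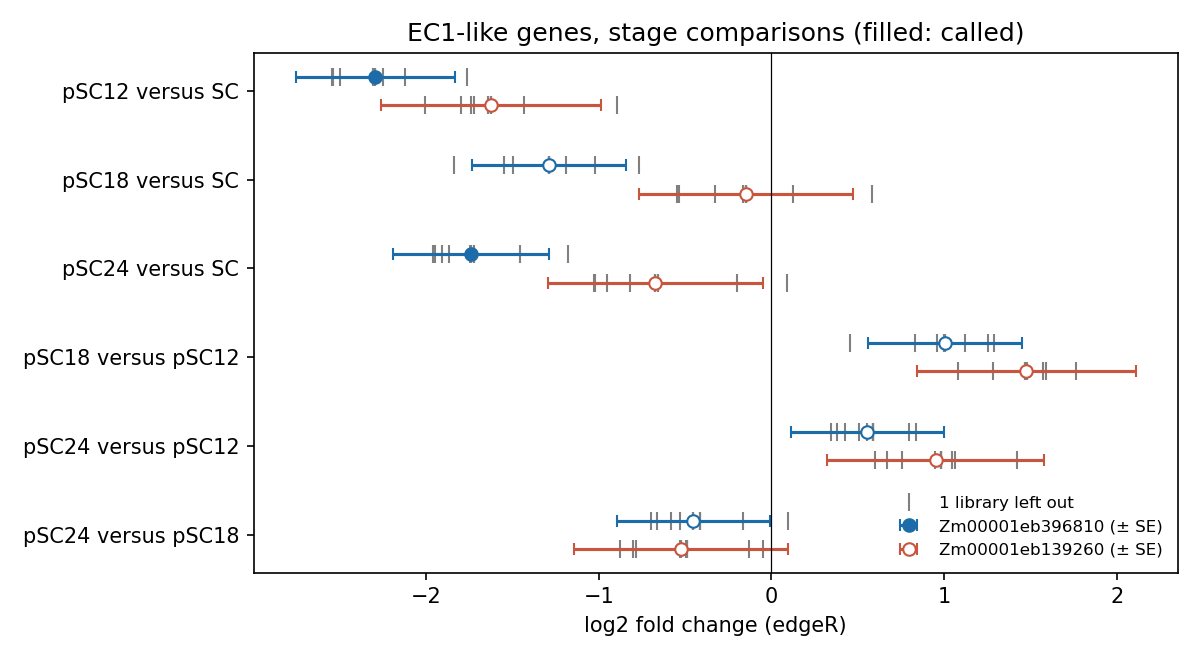
Log2 fold change ± SE of both genes in 6 stage comparisons, from edgeR, with filled points for called values. Grey ticks give the value with 1 library left out. Zm00001eb396810 was called lower in pSC12 (-2.29) and pSC24 (-1.74) than in SC.

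To set the EC1-like levels beside carry-over from the egg cell or zygote, genes with descriptions tied to those cells were read in the same libraries. Of 18 genes matched by description, 8 were other proteins, and 6 of the other 10 reached 1 FPKM in a library. Their summed level was 12.6 to 25.3 FPKM in 11 libraries and 83.7 FPKM in pSC18 replicate 3. Most of the sum outside that library came from Zm00001eb073910, described as an RKD transcription factor, at 12.0 to 22.8 FPKM in all 12 libraries. Leaving that gene out, a choice made after its values were seen, the other 9 summed to 0 to 2.73 FPKM in 11 libraries and to 71.7 FPKM in pSC18 replicate 3.

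Single egg cell and zygote genes differed in pattern. Zm00001eb073910 was at 12.0 FPKM in pSC18 replicate 3, its lowest value. An unannotated locus described as RKD4, in Arabidopsis a regulator of early embryo development, had 1611 counts in pSC18 replicate 3 and 0 counts in each of the other 11 libraries. A count of 0 allows up to 3 counts, by counting error only, which is 0.0536 to 0.1001 FPKM of this locus in those libraries. A second unannotated locus with that description had 85 counts in pSC18 replicate 3 and 0 in the others. Below, the RKD4-described locus means the first. Zm00001eb327080 was described as EGG APPARATUS-1, which in maize takes part in pollen tube guidance by the egg apparatus. Whether this gene marks the egg cell or zygote apart from the synergid was not tested. It had 319 counts (26.3 FPKM) in pSC18 replicate 3. It had 12, 38 and 6 counts in pSC24 and at most 3 counts in any library of SC or pSC12, and 0 in the other pSC18 libraries. Zm00001eb372360, described as RKD2, had 22, 15 and 0 counts in SC and 0, 0 and 17 counts in pSC12. The pSC18 libraries held 0, 0 and 52 counts of it, and the pSC24 libraries 5, 5 and 35 counts. It was thus highest in pSC18 replicate 3 but had counts in every stage.

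Set against these genes, both EC1-like genes were well above 0 in libraries where the RKD4-described locus had no count. In pSC18 replicates 1 and 2 the 9 genes summed to 0 and 0.36 FPKM, while Zm00001eb396810 was at 73.8 and 49.3 FPKM and Zm00001eb139260 at 33.3 and 18.1 FPKM. SC replicate 1, the highest library of both members, had 0 counts of the RKD4-described locus and 0 of the gene described as EGG APPARATUS-1. Its 9 genes summed to 1.38 FPKM, of which the RKD2-described gene Zm00001eb372360 made up 1.12 FPKM. That gene was at 0.80 and 0 FPKM in SC replicates 2 and 3. Its order over the SC libraries was that of Zm00001eb396810 but not that of Zm00001eb139260. In pSC18 replicate 3 the members and the sum of the 9 genes were high together. Of that sum, 26.3 FPKM came from the gene described as EGG APPARATUS-1. Zm00001eb073910 was at its lowest there, at 12.0 FPKM. The part of egg cells or zygotes in the members' level was not tested. No library of egg cells alone was among those analysed, so the level that 1 egg cell would bring was not measured. Whether egg cells before pollination hold the RKD4-described locus was not tested. Its 0 counts in SC therefore do not measure egg cell carry-over. Of the listed genes, 3 had no count in any library. The RKD4-described locus and the gene described as EGG APPARATUS-1 were high in pSC18 replicate 3 alone. Low sums of the 9 genes in other libraries, pSC18 replicates 1 and 2 included, therefore do not measure carry-over either.

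**Figure D3:**
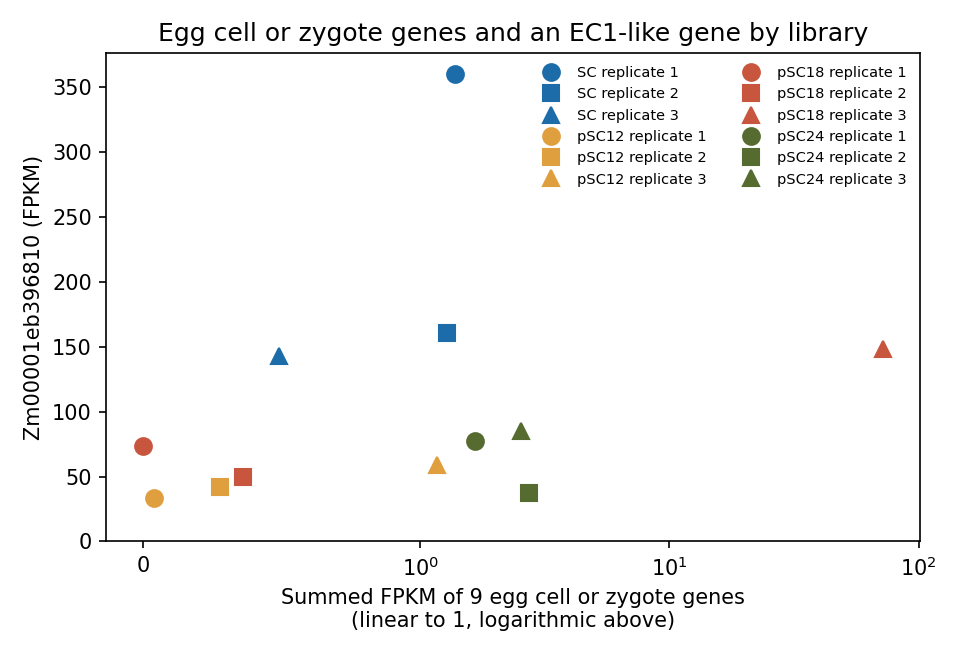
Zm00001eb396810 (FPKM, linear axis) against the summed FPKM of 9 egg cell or zygote genes (linear to 1, logarithmic above) in each library. pSC18 replicate 3 lies far to the right at 71.7 FPKM, while SC replicate 1, highest at 360 FPKM, lies at 1.38 FPKM. The 9 genes were not measured in egg cells alone.

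The genes next to the members were at lower levels. Around Zm00001eb396810, Zm00001eb396800 lay 1518 bases before it and Zm00001eb396820 lay 777 bases after it, and in SC replicate 1 they were at 5.55 and 11.4 FPKM. Unlike the member, Zm00001eb396800 was higher in pSC12 (8.07, 13.3 and 12.5 FPKM) than in SC (5.55, 3.35 and 2.69 FPKM). Zm00001eb139250, 45524 bases before Zm00001eb139260, was at 3.22 FPKM in pSC18 replicate 3 and at 0.19 and 0 FPKM in replicates 1 and 2. It was also at 0.71, 0.77 and 1.28 FPKM in pSC12. Zm00001eb139270, 72622 bases after Zm00001eb139260, ran from 2.39 to 7.04 FPKM over the libraries.

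Genes listed as gamete fusion machinery were read beside the members. They were matched by descriptions as HAP2, GAMETE EXPRESSED or DMP proteins. Of these, only HAP2 is the fusogen that moves after EC1 release in Arabidopsis, and a link of the others to EC1 was not tested. Of 23 genes in the list, 11 reached 1 FPKM in a library and 11 were tested. The gene described as GAMETE EXPRESSED 1 (Zm00001eb314230), a nuclear membrane protein of gametes in Arabidopsis, fell from 539 ± 42.0 FPKM in SC to 225 ± 22.3 FPKM in pSC24 (log2 fold change -1.27, adjusted p = 1.2e-05 in edgeR). The gene described as HAP2 (Zm00001eb103180) fell from 20.6 ± 2.16 to 10.4 ± 2.43 FPKM (log2 fold change -1.002, adjusted p = 0.00113). Zm00001eb343640, described as DMP6, was at 209 ± 23.9 FPKM in SC and 351 ± 111 FPKM in pSC24 (log2 fold change 0.73, adjusted p = 0.00946), short of the fold threshold. In pSC24 versus SC, 1 of the 11 was called higher (Zm00001eb260090, described as DMP3). The 3 called lower were GAMETE EXPRESSED 1, HAP2 and Zm00001eb359970, described as DMP6. Among all tested genes, 17.8% were called in this comparison, and 7.57% were called lower. The median log2 fold change of the list was 0.55 beside 0.05 over all tested genes. That median was the value of a gene at only 0.70 to 3.37 FPKM, so it does not describe the abundant genes of the list. In pSC12 versus SC, 0 were called higher and 1 lower (Zm00001eb366150, described as DMP3), beside 2.8% called and 1.18% called lower over all tested genes. Zm00001eb366150 was near the floor, with 19, 5 and 20 counts in SC and 0 in each pSC12 library. In pSC18 versus SC none was called, beside 4.3% of all tested genes.

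Markers of other cells in the preparation were read in the same way. The synergid regulator ZmMYB98 (Zm00001eb212880) fell from 1120 ± 79.0 FPKM in SC to 97.9 ± 70.0 FPKM in pSC24 (log2 fold change -3.53, adjusted p = 3.0e-05 in edgeR), while ZmES4 was not called there (-0.15, adjusted p = 0.376). Of 29 endosperm genes, 27 had no count in any library. An unannotated locus described as MEG1, the maize maternally expressed gene of endosperm transfer cells, was at 870 to 2013 FPKM in all 12 libraries, unpollinated SC included, and was called in no comparison. The 16 kDa gamma-zein gene (Zm00001eb099950), a seed storage protein, was at 61.1, 75.3 and 150 FPKM in pSC24 and at 0 to 0.35 FPKM elsewhere. The 26 pollen genes summed to 43.3 to 91.8 FPKM and 503 ribosomal protein genes to 8655 to 12656 FPKM, the latter highest in pSC18 replicate 3. The study reports far more ribosomal transcripts in egg cells and zygotes than in synergid cells. In SC replicates 1, 2 and 3 the ribosomal sum was 9218, 10094 and 10380 FPKM. What these sums owe to egg cells or zygotes was not tested.

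The genes most like each member over the 12 libraries were ranked by Pearson's r of log2(FPKM + 1) among the 18254 tested genes whose mean reached 1 FPKM in some stage. For Zm00001eb396810 they were Zm00001eb334630 (r = 0.90), described as a receptor-like kinase, Zm00001eb174940 (0.89), the histone H4 gene Zm00001eb313730 (0.88), Zm00001eb350300 (0.87) and Zm00001eb054470 (0.87), described as a transporter. The histone gene was at 38.9, 26.7 and 23.7 FPKM in SC and at 26.6 FPKM in pSC18 replicate 3. The others were low: Zm00001eb334630, Zm00001eb174940, Zm00001eb350300 and Zm00001eb054470 reached at most 1.84, 6.20, 3.15 and 1.62 FPKM in any library. For Zm00001eb139260 they were Zm00001eb348080 (0.82), Zm00001eb141080 (0.82), Zm00001eb395810 (0.81), Zm00001eb161260 (0.81) and again Zm00001eb054470 (0.80). Here Zm00001eb161260 was also low, at most at 1.90 FPKM in any library. Without pSC18 replicate 3, 0 of the 5 genes of either member were again among its first 5.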

How the data were processed

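Messenger RNA from pools of synergid cells was amplified and sequenced as read pairs. The submitters' processing notes name cutadapt 1.15, HISAT2 2.0.5 and featureCounts 1.5.0-p3, and the reference was Zm-B73-REFERENCE-NAM-5.0. Settings for strand and multiply mapped reads are not given in the sources used here. The authors deposited raw counts per gene, and FPKM values that the authors scaled by size factors rather than by each library's total. Recomputed FPKM deviated by at most 3.06e-05% from the deposited FPKM over 271158 values. Amplified reads carry no molecular identifiers.

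Counts of all 12 libraries were fitted in edgeR 4.0.16 (R 4.3.3) with TMM scaling, filterByExpr and the quasi-likelihood test, with Benjamini-Hochberg adjustment within each of 6 comparisons. The study describes the 3 libraries of a stage as independent biological replicates. The script was tested on simulated data. DESeq2 1.42.0, other scaling, no filter, a replicate block, a mapping set term, 6 libraries alone and each library left out were tried, and leaving out SC replicate 1 with pSC18 replicate 3 was chosen after seeing the data. Members and gene lists were chosen with earlier results of these data known. Named genes were the members, ZmMYB98, ZmES4, the 5 genes most like each member and at most 3 genes of highest mean per list. Neighbouring genes, the RKD2-described gene, the second RKD4-described locus and further called gamete fusion genes were named after their values were seen. List matches that were other proteins were set aside, which left no further relative of the EC1 domain. Sequences and promoter motifs were not analysed here.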

Additional observations from a re-analysis of the deposited data

How the results depend on the processing

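With the mapping set as a term, 0 members were called in pSC12 versus SC and 0 in pSC24 versus SC, against 1 in each. With 1 library left out, the number of members called ranged from 0 to 1 in pSC12 versus SC, pSC18 versus SC and pSC24 versus SC. The log2 fold change of Zm00001eb139260 in pSC18 versus SC turned from -0.15 to 0.044 with total count scaling and to 0.20 without SC replicate 1 and pSC18 replicate 3, and ranged from -0.55 to 0.58 with 1 library left out. In pSC24 versus SC it ranged from -1.03 to 0.091 with 1 library left out, and was 0.0914 without SC replicate 1 and pSC18 replicate 3. Zm00001eb396810 in pSC24 versus pSC18 ranged from -0.70 to 0.097 with 1 library left out and was 0.12 without both. ZmES4 (Zm00001eb393820) in pSC24 versus SC turned to 0.068 with total count scaling, and ZmMYB98 (Zm00001eb212880) in pSC18 versus pSC12 to 0.46 with the mapping set term. Mapping set varied within pSC24 only, so its term rested on pSC24 replicate 1 against the other pSC24 libraries. ZmMYB98 was at 59.7 FPKM in pSC24 replicate 1 and at 55.2 and 179 FPKM in the others. Its mean without any term was lower in pSC18 (430 FPKM) than in pSC12 (602 FPKM). The cause of the ZmES4 change was not tested. DESeq2, other size factors, no filter and 6 libraries changed no member's call.

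The replicate numbers did not pair the libraries: deviations of same-numbered libraries correlated at -0.06 to 0.09 over 18 pairs. With a replicate block, Zm00001eb396810 was at -2.27 in pSC12 and -1.81 in pSC24 versus SC, and the same 1 member was called in each. Over all genes, the calls in pSC12 versus SC ran from 40 to 1128 across alternatives against 592, in pSC18 versus SC from 526 to 1388 against 910, in pSC18 versus pSC12 from 0 to 398 against 5, and in pSC24 versus pSC18 from 775 to 2206 against 1708. With 3 pools per stage and a wide spread within stages, no difference of Zm00001eb139260 passed the test at this depth and number of pools.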
